A study of Mus musculus with 6 samples.

Results

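The transcripts of 8 genes of fatty acid and cholesterol synthesis were measured by RNA sequencing in 6 mouse hearts, 3 wild type and 3 lacking Arrdc4. The genes were the transcription factors Srebf1 and Srebf2, the fatty acid enzymes Fasn, Acaca, Elovl6, Scd1 and Scd2, and the sterol enzyme Hmgcs1. They were chosen by name, with earlier results of these data known, and all 8 were found among the 49315 genes of the count table. The hearts came from mice of the C57BL/6 strain background, and in the knockout group the labels give a disruption of Arrdc4 made with CRISPR-Cas9. No treatment, age, sex, litter or time of collection was given in the labels for either group. Descent of the knockout mice from 1 founder or several was not stated either. The labels name the hearts as separate samples and nothing more, so p-values measure the spread between these samples.

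Sterol regulatory element-binding proteins, or SREBPs, are transcription factors made as membrane proteins of the endoplasmic reticulum. When sterols are low, the escort protein Scap carries them to the Golgi, where a pair of proteases release the part that enters the nucleus and switches on lipid synthesis genes. Srebf1 is best known for fatty acid genes and Srebf2 for cholesterol genes, and much of this control acts on the protein, which a transcript count does not show. The heart mostly burns fatty acids that it takes up, and makes few of its own compared with liver or fat.

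Arrdc4 encodes an alpha-arrestin, an adaptor protein for ubiquitin ligases, and it checked the labels. Its reads numbered 349, 307 and 281 in the wild-type hearts and 5, 1 and 2 in the knockout hearts, a log2 fold change of -7.00 (SE 0.36, adjusted p = 0.00226, edgeR quasi-likelihood test). No other gene of the 14508 tested passed an adjusted p of 0.05. That call was lost without knockout replicate 3 (adjusted p = 0.0519). The libraries held 29974501 to 41036626 counts each. Wild-type replicate 3 and knockout replicate 2 stood apart from the other 4 hearts. They were the most alike pair, with a chi-square per degree of freedom of 7.31 against 24.7 or more for every other pair, although they differ in genotype. In these 2 hearts long transcripts were lower and short ones higher, and results on the 8 genes are therefore given with and without them.

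Per unit of transcript length, Hmgcs1 and Srebf1 were the most abundant of the 8 genes and Elovl6 was the least. On the TPM scale, which divides counts by exon length before scaling each heart to a common total, Hmgcs1 stood at 15.9 ± 2.32 (SD, n = 6 hearts) and Srebf1 at 13.9 ± 3.84. Srebf2 followed at 6.08 ± 1.67, Fasn at 4.80 ± 2.13 and Scd2 at 4.69 ± 1.33. Scd1 stood at 3.24 ± 1.36, Acaca at 1.32 ± 0.479 and Elovl6 at 0.243 ± 0.0797. Neighbours in this order were not always apart: Hmgcs1 exceeded Srebf1 in 5 of 6 hearts, Srebf2 exceeded Fasn in 5, and Fasn exceeded Scd2 in only 2. Every other neighbouring pair kept its order in all 6 hearts. Elovl6 rested on 15 to 39 reads per heart, so its value carries the most counting error.

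On the mouse build GRCm38, 3 of the 8 genes lie on chromosome 11. These are Srebf1 (60199089 to 60222581, minus strand), Acaca (84129672 to 84401651, plus strand) and Fasn (120805846 to 120824547, minus strand). Scd1 (44394455 to 44407879, minus strand) and Scd2 (44293674 to 44306864, plus strand) are neighbouring copies on chromosome 19. Srebf2 is on chromosome 15 (82147181 to 82205379, plus strand), Elovl6 on chromosome 3 (129532355 to 129638495, plus strand) and Hmgcs1 on chromosome 13 (119690379 to 119708260, plus strand). Exon totals here are those of GENCODE release M21, and the annotation used for the counts was not given. Acaca has the longest exon total of the 8, 17074 bp in 59 exon blocks, followed by Fasn with 10947 bp in 42. Hmgcs1 has the shortest, 4594 bp.

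Some reads could be shared with other genes. Of all 50-base runs in the annotated transcripts of Acaca, 30.4% also occur in another gene, nearly all of them in the predicted gene Gm5182, and the share was 11.6% for Hmgcs1, 4.56% for Scd1 and 3.97% for Scd2. Fasn shared none. Exons of Srebf1, Elovl6 and Hmgcs1 overlap a gene on the opposite strand, and no source used here states how the counting treated strand. The levels of Acaca and Hmgcs1 are uncertain to that extent.

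Promoter sequence was searched for the letters SREBPs are best known to bind. The 250 bases before the start are shown for Hmgcs1, the gene of the 8 whose level varied least between hearts, and for Fasn, whose level varied most. The letters TCACNCCAC, a short form of the sterol regulatory element, and CCAAT, the box bound by the partner factor NF-Y, are in capitals, on either strand. The sequences are from RefSeq on GRCm38.p6, 5′ to 3′ on the strand of the gene, at chr13:119690101-119690350 (plus strand) for Hmgcs1 and chr11:120824548-120824797 (minus strand) for Fasn.
Hmgcs1: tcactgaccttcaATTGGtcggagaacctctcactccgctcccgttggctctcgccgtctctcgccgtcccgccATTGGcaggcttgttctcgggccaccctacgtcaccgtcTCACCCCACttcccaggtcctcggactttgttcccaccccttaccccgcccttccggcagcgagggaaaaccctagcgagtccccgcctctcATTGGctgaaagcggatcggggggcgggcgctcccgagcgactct
Fasn: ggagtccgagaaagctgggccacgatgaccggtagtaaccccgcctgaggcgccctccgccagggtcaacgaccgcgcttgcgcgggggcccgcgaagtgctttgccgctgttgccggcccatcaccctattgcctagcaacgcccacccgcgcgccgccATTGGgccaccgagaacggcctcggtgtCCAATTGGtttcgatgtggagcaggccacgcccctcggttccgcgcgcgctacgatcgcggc

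Both windows hold 3 CCAAT boxes before the start, 2 of which overlap in Fasn, and Hmgcs1 also holds the sterol element letters, 137 bases before it. The promoter table held 8 windows of 250 bases before to 50 after a start, for 6 of the genes, with 3 starts for Srebf1. The 1 start listed for Acaca, at 84195438 on chromosome 11, lies inside the gene, whose annotated span begins at 84129672. Its window may therefore miss other starts of that gene. Scd1 and Scd2 were not matched. TCACNCCAC was found in 1 of these 8 windows, that of Hmgcs1, and in 1.24% of all 32851 windows in the table. CCAAT was found in 5 of 8 and in 37.4% of all. The classic sterol element, TCACCCCAC preceded by an A, which the shorter form takes in, was in 0 of 8 and in 0.0913% of all, and the E-box CACGTG, another SREBP sequence, was in 0 of 8 and in 7.15% of all. These matches describe letters in a window and were not tied to binding, which was not measured.

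None of the 8 genes passed the test between knockout and wild-type hearts, and in each of them the groups overlapped. All 8 had an adjusted p of 1 in edgeR's quasi-likelihood test, and 0 of 8 were under 0.05 before adjustment. Over all tested genes 0.00689% passed after adjustment and 1.23% before it, and the groups did not overlap in 4.07%. The fold changes ran from -0.41 for Srebf1 to 0.48 for Elovl6 on the log2 scale, with 5 genes below 0 and 3 above, and the median over all tested genes was 0.01. A 2-fold difference in either direction lay outside the 95% interval for 5 of the 8 genes (Srebf1, Srebf2, Acaca, Scd2 and Hmgcs1), and for 76.3% of all tested genes. Fasn, Elovl6 and Scd1 had intervals that held a 2-fold difference in 1 direction. In whole-heart RNA, fewer cells of a type and less RNA per cell cannot be told apart.

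**Figure D1:**
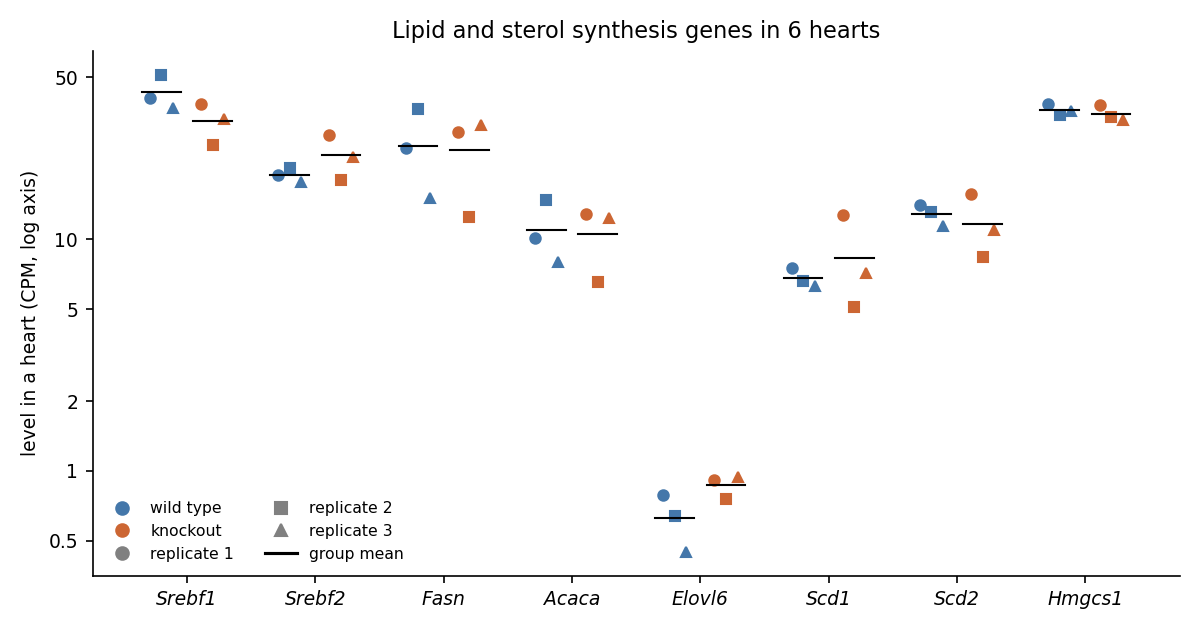
Level of each of the 8 genes in CPM (counts put on 1 common library total, log axis) in 3 wild-type (blue) and 3 knockout (orange) hearts, with symbols for the replicate and bars for group means. The groups overlap for every gene, and Hmgcs1 is nearly level. Fasn, Acaca, Srebf2 and Scd1 are lowest in wild-type replicate 3 and knockout replicate 2.

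The 2 transcription factor genes had fold changes of opposite sign. On the CPM scale, which puts the counts of each library on 1 common total, Srebf1 stood at 40.7, 51.4 and 37.0 in the wild-type hearts and at 38.4, 25.5 and 32.9 in the knockout hearts. Knockout replicates 2 and 3 were the lowest of the 6 hearts, while knockout replicate 1 lay inside the wild-type range. This gave a log2 fold change of -0.41 (SE 0.20, 95% interval -0.88 to 0.05, adjusted p = 1 in edgeR). Srebf1 is known to make a longer and a shorter form of the protein from different starts. The promoter table lists 3 starts for it, and gene counts do not separate them.

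Srebf2 stood at 19.0, 20.2 and 17.8 CPM in the wild-type hearts and at 28.3, 18.1 and 22.7 in the knockout hearts. Knockout replicates 1 and 3 were above all wild-type hearts, and knockout replicate 2 was among them. The log2 fold change was 0.28 (SE 0.19, 95% interval -0.16 to 0.71, adjusted p = 1 in edgeR). Without wild-type replicate 3 and knockout replicate 2 the log2 fold changes were -0.38 for Srebf1 (SE 0.15) and 0.37 for Srebf2 (SE 0.15), both with an adjusted p of 0.725 in edgeR. Without knockout replicate 1, that of Srebf2 was 0.10.

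Of the genes that begin fatty acid synthesis, Fasn and Acaca gave nearly equal group means and a wide spread within both groups. Fasn encodes fatty acid synthase, which builds palmitate. It stood at 24.7, 36.5 and 15.0 CPM in the wild-type hearts and at 29.0, 12.4 and 31.2 in the knockout hearts. The lowest wild-type and the lowest knockout heart were the 2 that stood apart, and the other 4 lay between 24.7 and 36.5. Group means were 25.4 ± 10.8 and 24.2 ± 10.2 CPM (SD, n = 3 each), with a log2 fold change of -0.07 (SE 0.42, 95% interval -1.04 to 0.91). The sign turned when wild-type replicate 2 (0.28) or knockout replicate 2 (0.24) was left out. With both hearts that stood apart left out, the log2 fold change was -0.03 and its SE 0.19.

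Acaca encodes acetyl-CoA carboxylase 1, which makes the malonyl-CoA that fatty acid synthase extends. It stood at 10.1, 14.8 and 7.97 CPM in the wild-type hearts and at 12.9, 6.51 and 12.3 in the knockout hearts. The same 2 hearts were the lowest, as for Fasn. The log2 fold change was -0.05 (SE 0.32, 95% interval -0.80 to 0.70), and it was 0.22 when wild-type replicate 2 was left out, 0.20 when knockout replicate 2 was, and 0.0047 when both hearts that stood apart were.

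Elovl6, which lengthens palmitate to stearate, was the lowest of the 8 genes. It stood at 0.791, 0.639 and 0.448 CPM in the wild-type hearts and at 0.910, 0.758 and 0.943 in the knockout hearts. Knockout replicate 2 lay just under wild-type replicate 1, and this pair alone made the groups overlap. Elovl6 had a log2 fold change of 0.48 (SE 0.31, 95% interval -0.24 to 1.20, adjusted p = 1 in edgeR), and of 0.37 (SE 0.34) without the 2 hearts that stood apart.

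The 2 stearoyl-CoA desaturases, which put the first double bond into stearate and palmitate, were both highest in knockout replicate 1 and lowest in knockout replicate 2. Scd1 stood at 7.53, 6.60 and 6.27 CPM in the wild-type hearts and at 12.8, 5.10 and 7.15 in the knockout hearts. Knockout replicate 1 was above the other 5 hearts, and knockout replicate 2 was below them. Knockout over wild type, the log2 fold change was 0.30 (SE 0.32, 95% interval -0.46 to 1.06), and without knockout replicate 1 it was -0.15. Without the 2 hearts that stood apart it was 0.49 (SE 0.27).

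Scd2 stood at 14.1, 13.2 and 11.4 CPM in the wild-type hearts and at 15.7, 8.37 and 11.0 in the knockout hearts. Knockout replicates 1 and 2 were its highest and lowest hearts. The log2 fold change was -0.14 (SE 0.24, 95% interval -0.70 to 0.42), with 0.048 without knockout replicate 2 and -0.41 without knockout replicate 1. Without the 2 hearts that stood apart it was -0.04 (SE 0.19). Another copy, Scd3, had 4 to 12 reads per heart and was not tested.

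The fourth desaturase copy, Scd4, was named after its values were seen. Its level was 25.2, 20.5 and 24.2 CPM in the wild-type hearts and 7.95, 18.7 and 18.1 in the knockout hearts, so that all 3 knockout hearts were below all 3 wild-type hearts. The groups did not overlap in that direction in 1.9% of all tested genes. The log2 fold change was -0.64 (SE 0.31, adjusted p = 1 in edgeR), and without knockout replicate 1 it was -0.34. Without the 2 hearts that stood apart it was -0.82 (SE 0.35, adjusted p = 0.752 in edgeR).

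Hmgcs1, the cytosolic HMG-CoA synthase at the start of cholesterol synthesis, was the flattest of the 8 genes. It stood at 38.4, 34.3 and 35.7 CPM in the wild-type hearts and at 38.1, 33.7 and 32.8 in the knockout hearts. Every heart lay within a narrow range and the groups overlapped. The log2 fold change was -0.05 (SE 0.13, 95% interval -0.35 to 0.25), and -0.04 (SE 0.13) without the 2 hearts that stood apart. Its spread over the 6 hearts on the log2 scale was smaller than that of all but 6.73% of the tested genes.

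The other genes of these pathways gave the same picture, with 0 of the tested members of each list passing the test in either direction. Of the 13 genes that carry, cut or hold back SREBPs, which include Srebf1 and Srebf2, 5 had fold changes above 0 and 8 below, with a median of -0.03 on the log2 scale. In this list 2-fold was outside the interval for all 13, beside 76.3% of all tested genes. Mbtps1, the site-1 protease that makes the first of the cuts, gave 0.18 (SE 0.15). Erlin2, a membrane protein that binds the SREBP escort complex, gave 0.12 (SE 0.15).

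Sterol synthesis held 20 genes, Hmgcs1 among them, with 7 fold changes above 0 and 13 below and a median of -0.06. For 17 of the 20 a 2-fold difference lay outside the interval, beside 76.3% of all tested genes. The groups overlapped in all 20, and over all tested genes they did not overlap in 4.07%. Hsd17b7, a sterol ketone reductase of the pathway, gave -0.21 (SE 0.14).

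Of the 16 genes of sterol uptake, storage and export, 15 were tested, 8 of them above 0 and 7 below, with a median of 0.01, and 2-fold lay outside the interval for 9, beside 76.3% of all tested genes. The groups did not overlap in 1 of the 15, beside 4.07% of all tested genes. This was Apoe, the lipoprotein that carries lipid out of cells. Apoe stood at 208, 257 and 225 CPM in the wild-type hearts and at 177, 159 and 200 in the knockout hearts, with a log2 fold change of -0.36 (SE 0.16, adjusted p = 1 in edgeR). Soat1, which esterifies cholesterol for storage, gave 0.67 (SE 0.33) with overlapping groups. Without the 2 hearts that stood apart Soat1 gave 0.97 (SE 0.27), and without knockout replicate 1 it gave 0.40.

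Fatty acid synthesis held 25 genes, of which 21 were tested, including the 5 described above. Fold changes were above 0 for 9 and below 0 for 12, with a median of -0.07. A 2-fold difference lay outside the interval for 13 of the 21, beside 76.3% of all tested genes. The groups did not overlap in 3 of the 21, beside 4.07% of all tested genes. Fads2 was higher and Thrsp and Scd4 were lower in knockout hearts. Over all tested genes, 1.9% were lower with no overlap. Fads2, a desaturase of polyunsaturated fatty acids, stood at 2.25, 1.97 and 2.12 CPM in the wild-type hearts and at 4.38, 2.38 and 3.19 in the knockout hearts. Its log2 fold change was 0.66 (SE 0.26, adjusted p = 1 in edgeR), and 2.18% of all tested genes were higher with no overlap. With the 2 hearts that stood apart left out, Fads2 gave 0.84 (SE 0.25, adjusted p = 0.686 in edgeR). Without knockout replicate 1, in which the summed levels of epicardial, fibroblast and macrophage genes were also highest, Fads2 gave 0.40. The part of those cells was not tested. Thrsp, a protein that acts with acetyl-CoA carboxylase in fat-making tissues, stood at 22.1, 30.7 and 25.0 CPM in the wild-type hearts and at 16.0, 21.9 and 15.4 in the knockout hearts. The highest knockout heart was just under the lowest wild-type heart, and the log2 fold change was -0.55 (SE 0.20, adjusted p = 1 in edgeR). It was -0.76 (SE 0.18, adjusted p = 0.686 in edgeR) without the 2 hearts that stood apart, and -0.41 without wild-type replicate 2.

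Glycerolipid synthesis, the use of fatty acids for triglyceride and phospholipid, held 20 genes, of which 19 were tested. Of these, 9 were above 0 and 10 below, with a median of -0.004. A 2-fold difference lay outside the interval for 17 of the 19, beside 76.3% of all tested genes. Pcyt2, of phosphatidylethanolamine synthesis, gave -0.25 (SE 0.14), and without the 2 hearts that stood apart -0.38 (SE 0.11). Pemt, which methylates phosphatidylethanolamine, gave -0.35 (SE 0.31), with -0.65 (SE 0.36) without those hearts and -0.13 without knockout replicate 1. Dgat1, an enzyme of the last step to triglyceride, was named after its values were seen as the 1 gene of the list whose groups did not overlap. Wild-type hearts held 15.9 ± 0.894 CPM of it and knockout hearts 14.8 ± 0.160 (SD, n = 3 each), with a log2 fold change of -0.10 (SE 0.13). Over all tested genes, 1.9% were lower with no overlap.

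**Figure D2:**
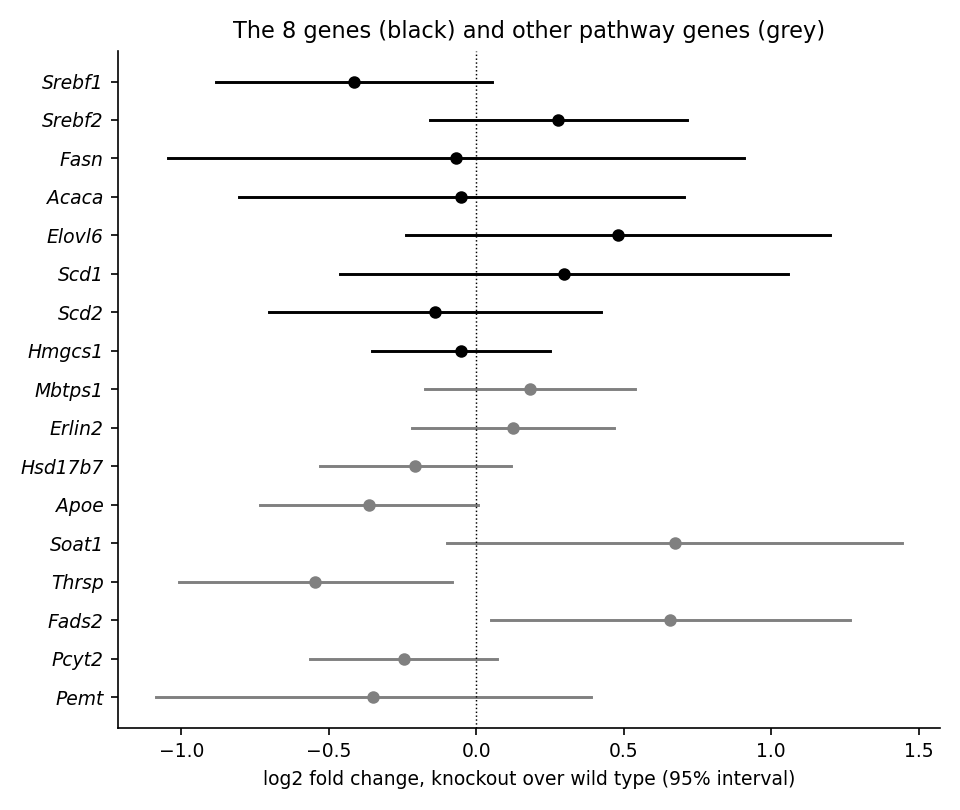
Log2 fold change of knockout over wild type with its 95% interval from edgeR, for the 8 genes (black) and other genes of small p from 5 pathway lists (grey), with the dotted line at no change. The intervals of all 8 genes cross 0, and those of Thrsp and Fads2 do not, although neither passed after adjustment.

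Markers were read for cell types that make much lipid. The defining genes of mature adipocytes were near 0 in all 6 hearts: Adipoq, Lep and Plin1 had 8, 4 and 21 reads in all libraries together. The summed level of the 12 adipocyte genes was 12.7 to 17.0 CPM in wild-type and 14.1 to 16.3 in knockout hearts, and Tmem120b, Sncg and Trarg1 made up most of it. Of 7 brown fat genes, Slc27a2 and Otop1 were at 0 and Ucp1 had 1 read. Their sum was 22.5 to 33.3 CPM in wild-type and 26.1 to 29.9 in knockout hearts, carried by Cidea (27.5 CPM on average). The cardiomyocyte genes, led by Myh6, Actc1 and Myl2, summed to 62784 to 68025 CPM in wild-type and 61401 to 72529 in knockout hearts.

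Summed markers of several other cell types were highest in knockout replicate 1, the heart in which Scd1, Scd2 and Srebf2 were highest. The 6 epicardial genes, led by Aldh1a2, Upk3b and Wt1, summed to 35.0 CPM there, with 5.55 to 20.0 CPM in the other knockout hearts and 6.78 to 12.5 CPM in wild-type hearts. The 8 fibroblast genes, led by Dcn, Col3a1 and Col1a2, summed to 1243 CPM there and to 459 to 936 CPM in the other 5 hearts. The 8 macrophage genes, led by Lyz2, C1qb and C1qa, summed to 403 CPM there and to 217 to 299 CPM elsewhere. Not every marker followed its sum. Lum, Smoc2 and Tcf21 of the fibroblast list were highest in knockout replicate 3, and Lyz2 was highest in wild-type replicate 3. The other genes of the epicardial, fibroblast and macrophage lists were highest in knockout replicate 1. Endothelial genes, led by Fabp4, Kdr and Pecam1, ranged from 850 to 1027 CPM in wild-type and from 832 to 1101 in knockout hearts. Schwann cell genes, with Cnp and Mbp among the most abundant, ranged from 9.43 to 10.8 CPM and from 7.13 to 16.1, and blood genes, led by Hbb-bs, Hba-a1 and Hbb-bt, from 525 to 759 and from 453 to 801. The part of these cell types in the values of Scd1, Scd2 and Srebf2 was not tested.

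Fasn, Acaca, Srebf2 and Scd1 were lowest in the 2 hearts that stood apart, 1 of each genotype. Their exon totals were 10947, 17074, 7184 and 4892 bp. The mean log2 CPM of wild-type replicate 3 and knockout replicate 2 minus that of the other 4 hearts was -1.13 for Fasn and -0.78 for Acaca, the 2 longest genes. Of all tested genes, 2.01% lay lower than Fasn and 6.76% lower than Acaca. For Scd1, Scd2, Elovl6, Srebf1 and Srebf2 it was between -0.53 and -0.31, and for Hmgcs1 it was -0.05. The median of this difference was -0.02 over all tested genes, 0.37 over the 3621 genes with the shortest exon totals and -0.32 over the 3621 with the longest. Below 0 were 22.9% of the shortest and 76.4% of the longest. An offset for how each library's counts move with length was fitted in the comparison of genotypes, and it left all 8 signs as they were. With the offset, the log2 fold change was -0.44 for Srebf1 (SE 0.16) and -0.12 for Fasn (SE 0.31). The 2 hearts that stood apart are 1 of each genotype, so these signs cannot show the part of length in their low values. That part was not tested.

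**Figure D3:**
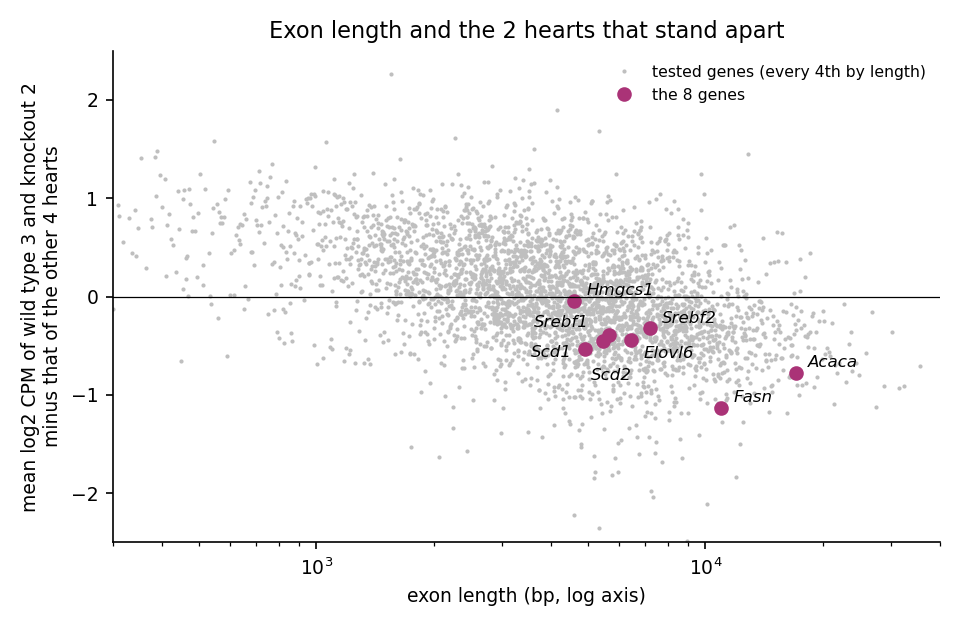
Mean log2 CPM of wild-type replicate 3 and knockout replicate 2 minus that of the other 4 hearts, against exon length in bp (log axis), for every 4th tested gene by length (grey) and the 8 genes (purple). Differences fall with length across all genes, and Fasn and Acaca are the longest and lowest of the 8, at -1.13 and -0.78.

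**Figure D4:**
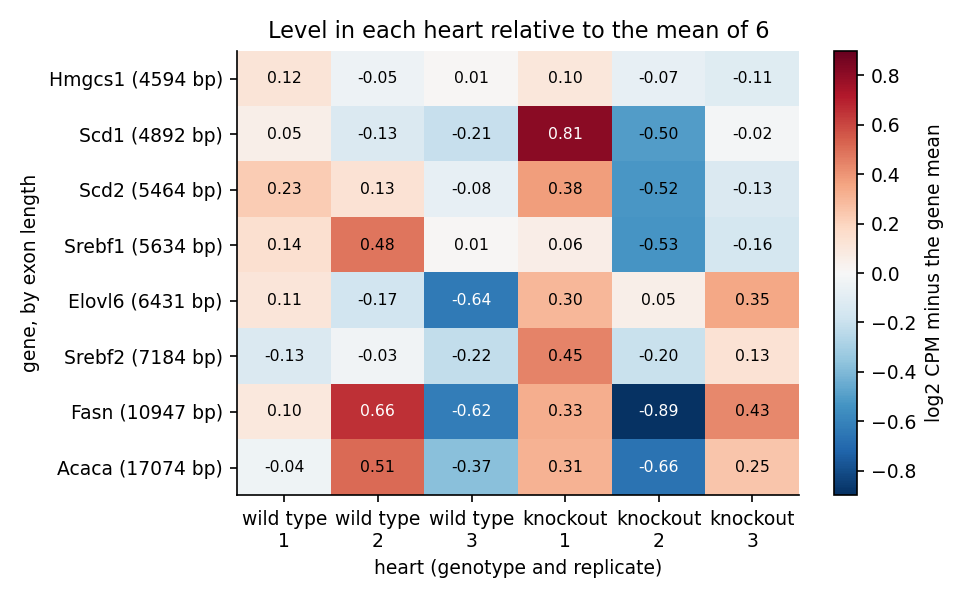
Log2 CPM of each gene in each heart minus the mean of that gene over 6 hearts, as coloured cells with the value printed, with genes in order of exon length. Knockout replicate 2 holds the lowest value of Fasn (-0.89), knockout replicate 1 the highest of Scd1 (0.81), and Hmgcs1 stays between -0.11 and 0.12.

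For Fasn, Scd1 and Hmgcs1, the genes with the most similar levels over the 6 hearts were found. Likeness was the root mean square difference of log2 CPM, centred on the mean of each gene, among 10477 genes of mean log2 CPM of at least 1. Predicted, unnamed and sex-linked genes were left out of these. The nearest to Fasn were Dop1b (0.0677), Gcn1l1 (0.0779), Igf2r (0.0933) and Focad (0.102), where the profile of Fasn itself has an SD of 0.564. These 4 genes have exon totals of 9890, 17815, 9308 and 11311 bp, all among the 3621 longest of the tested genes, as Fasn is. The nearest to Scd1 were Gatm (0.0679), Ptpn6 (0.0712), Mgat3 (0.0889) and Tagln2 (0.0934), all highest in knockout replicate 1, with an SD of 0.403 for Scd1. The nearest to Hmgcs1 were Cep76 (0.0215), Pign (0.0336), Pip5k1b (0.0338) and Slbp (0.0341), beside an SD of 0.0859. The points of each profile share a library, its depth and its length trend.

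Ratios between genes within a heart were taken after the levels had been seen, and are descriptions. The ratio of Srebf1 to Srebf2 reads was 2.15, 2.54 and 2.09 in the wild-type hearts and 1.36, 1.41 and 1.45 in the knockout hearts. All 3 knockout hearts were below all 3 wild-type hearts, including the 2 that stood apart, at 2.26 ± 0.247 against 1.41 ± 0.0464 (SD, n = 3 each). Of all tested genes set against Srebf2 in this way, 8.21% gave groups that did not overlap, and of those set against Srebf1, 33.5% did. The difference between the group means was -0.85, and it ran from -0.94 to -0.71 with each heart left out in turn.

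The ratio of Scd1 to Scd2 reads was 0.534, 0.501 and 0.548 in the wild-type hearts and 0.813, 0.609 and 0.650 in the knockout hearts. All 3 knockout hearts were above all 3 wild-type hearts, with knockout replicate 1 the highest, at 0.691 ± 0.108 against 0.528 ± 0.0242 (SD, n = 3 each). The difference of 0.16 became 0.10 without knockout replicate 1. Of the 28 pairs among the 8 genes, 8 gave groups that did not overlap, where 4.6% of all pairs of tested genes did. Srebf1 was in 4 of these 8 pairs, Elovl6 in 3 and Scd2 in 3, so the pairs are not independent of each other. Against Srebf1, 33.5% of all tested genes gave groups that did not overlap, so the 4.6% is not a matched background for its pairs. Such a share was not computed for Scd1, Scd2 or Elovl6, and the count of pairs is not read as an excess.

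**Figure D5:**
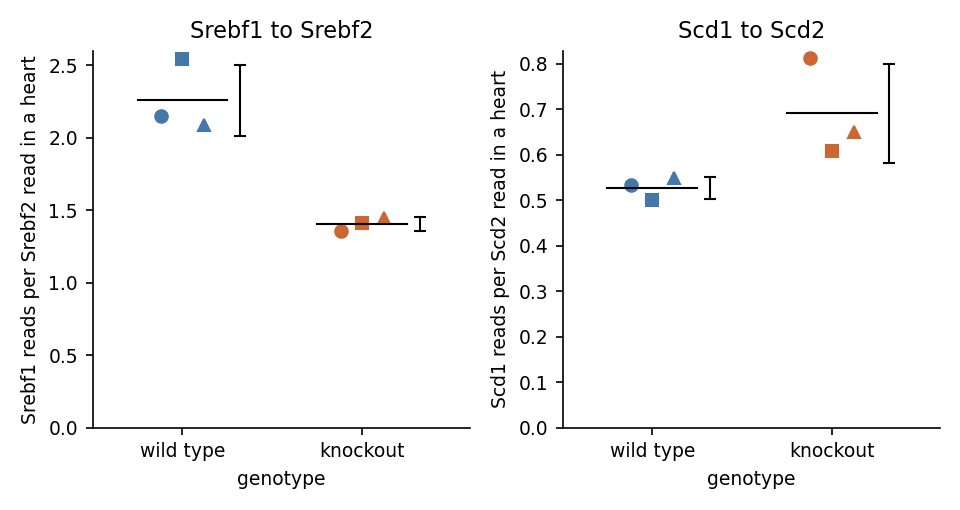
Reads of Srebf1 per read of Srebf2 (left) and of Scd1 per read of Scd2 (right) in each heart, with lines for group means and bars for 1 SD to each side, on axes that start at 0. Wild-type hearts lie at 2.09 to 2.54 and knockout hearts at 1.36 to 1.45 on the left, and at 0.501 to 0.548 and 0.609 to 0.813 on the right.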

How the data were processed

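RNA of 6 mouse hearts was purified on Qiagen columns and made into libraries with a NEBNext Ultra II kit, per the labels' protocols. The authors deposited raw whole-number counts of reads per gene and library. The submitters' processing notes list STAR, featureCounts, Subread 1.5.2 and DESeq2, with GRCm38.p6 as the build, and no roles. Annotation release, strand setting and the handling of multiply matching reads were not given in the sources used here, which bears most on Acaca and Hmgcs1.

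Genes of low count were dropped with filterByExpr (at least 10 counts, at least 15 in total), which left 14508 genes and all 8 described here. Libraries were scaled by TMM, and the genotypes were compared by edgeR 4.0.16 (R 4.3.3) with its quasi-likelihood test. P-values were adjusted by Benjamini-Hochberg over all genes tested, with a threshold of 0.05. CPM are counts over TMM-scaled library sizes, and TPM use exon lengths of GENCODE release M21 on GRCm38. Intervals are at 95%. Reads carry no molecular identifiers. The median standard error was 0.23 on the log2 scale. Profiles used log2 CPM with a prior count of 2. The fit was first run on simulated counts with known changes. Those counts carried no trend on transcript length, so that run does not show how the fit handles one. Of the identifiers, 48970 matched a symbol and 345 did not.

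The 8 genes and the lists were chosen with earlier results of these data known. Named are the 8 genes, Arrdc4, the 2 other genes of smallest p in each of 5 pathway lists, the 3 most abundant and the defining markers of each cell type, and the 4 genes most like Fasn, Scd1 and Hmgcs1. Some genes that this rule names are not reported here. Scd4, Dgat1 and the ratios were chosen after their values were seen. Alternatives were other size factors, other filters, DESeq2 1.42.0, limma 3.58.1 (voom), robust edgeR, a replicate block and hearts left out. The offset for length was added after the data were seen.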

Additional observations from a re-analysis of the deposited data

How the results depend on the processing

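Over all settings tried, none of the 8 genes passed an adjusted p of 0.05, and the smallest was 0.613 in edgeR without knockout replicate 2. Of the log2 fold changes of the 8 genes under other settings, 120 kept their sign and 7 turned it. Acaca became 0.0047 on the log2 scale with wild-type replicate 3 and knockout replicate 2 both left out, by a difference well under its SE of 0.20. With each heart left out in turn, the log2 fold change ran from -0.34 to 0.28 for Fasn, from -0.23 to 0.22 for Acaca, from -0.15 to 0.55 for Scd1 and from -0.41 to 0.048 for Scd2, so the sign of these 4 genes rested on single hearts. It ran from -0.56 to -0.27 for Srebf1, 0.10 to 0.42 for Srebf2, 0.29 to 0.68 for Elovl6 and -0.12 to -0.01 for Hmgcs1. Elovl6 was not tested under a filter of 1 CPM in 3 samples. The number of genes called lower was 1, and 0 to 1 with a heart left out (0 without knockout replicate 3). The number called higher was 0, and 1 with both hearts that stood apart left out. Genes at an unadjusted p under 0.05 numbered 179, of which 0 were among the 8 genes, against 1126 without knockout replicate 2 and 981 with both left out. Of the 8 genes, Srebf1 and Srebf2 were under it with both left out (each at an adjusted p of 0.725 in edgeR), Srebf2 without knockout replicate 2, and Srebf1 without knockout replicate 1 and with the length offset. A replicate block gave 0 genes called lower, 72 at an unadjusted p under 0.05, and an Arrdc4 adjusted p of 0.0507 in edgeR. The labels do not say whether the replicate numbers pair the hearts. The deviations of same-numbered hearts correlated at 0.184, -0.649 and -0.399, and the best match of wild-type replicate 3 was knockout replicate 2 (0.684). The hearts that stood apart weigh on these values, so the values cannot decide whether equal numbers mark pairs. The cause of the changes between settings was not tested. DESeq2 left the adjusted p of 23647 genes undefined.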
